A study of Mus musculus with 288 samples.

Results

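Cells of the mouse upper small intestine that carry mRNA of pregnancy zone protein (Pzp) were divided here by their level of Tph1, the gene of tryptophan hydroxylase 1. A cell was kept if it held 20000 or more reads on mouse genes, of which at most 20% were mitochondrial, and it was called Pzp-positive from 100 CPM of Pzp (counts per 1000000 reads on mouse genes of that cell). Pzp-positive cells with 200 CPM or more of Tph1 were named Tph1-high and those under 50 CPM were named Tph1-low. Of 288 cells in the series, 250 passed the limits on depth and mitochondrial share and 65 of these were Pzp-positive. The 57 cells compared were 32 Tph1-high and 25 Tph1-low cells, and the other 8 Pzp-positive cells lay between both Tph1 limits.

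The cells were sorted singly from the top of the small intestine of male GLU-Venus mice on a C57BL6 background, aged 20 to 21 weeks, in which the Venus fluorescent protein is driven by the Gcg promoter, and were given the cell type "L-cells" in the labels. Smart-seq2 libraries, which carry no molecular barcodes and no strand, were made in 3 sequencing pools of 96 cells. By the study's methods each pool came from a mouse of its own, so both sides of the comparison came from the same mice, and no treatment was given. The labels do not say which cells were Venus-positive, and the methods place Venus-negative cells in the pools SLX-11175 and SLX-11179, while SLX-9703 held Venus-positive cells and was sequenced more deeply.

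Enterochromaffin cells make most of the serotonin (5-HT) of the body. Tph1 carries out the rate-limiting hydroxylation of tryptophan with tetrahydrobiopterin as cofactor, Ddc removes the carboxyl group to yield 5-HT, and the vesicular monoamine transporter Slc18a1 loads it into granules. L-cells are the gut cells that process the glucagon precursor encoded by Gcg to glucagon-like peptide-1, and Tph1 is also found in gut endocrine cells that make peptides such as secretin and cholecystokinin.

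The 57 cells lay unevenly over the pools. SLX-11175 held 4 Tph1-high and 7 Tph1-low cells, SLX-11179 held 6 and 13, and SLX-9703 held 22 and 5. As a share of Pzp-positive cells, Tph1-high cells made up 26.7% (exact 95% binomial interval 7.79 to 55.1) of 15 cells in SLX-11175, 27.3% (10.7 to 50.2) of 22 in SLX-11179 and 78.6% (59.05 to 91.7) of 28 in SLX-9703. The deeper pool thus held most of the Tph1-high cells. After every cell had been thinned to 20000 reads, 33.3%, 27.3% and 67.9% of the same cells reached 200 CPM of Tph1, so the order with SLX-9703 highest was also seen at equal depth. Whether the sort gate or the mouse sets this share was not tested, and the pool, the mouse and the gate cannot be told apart here.

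The cells were chosen by their measured Tph1 and Pzp, whose levels are given as a description. Tph1 (ENSMUSG00000040046, chr7:46644641-46672537 in mm10, minus strand) ranged in single Tph1-high cells from 246 to 483 CPM with a median of 380 in SLX-11175, from 287 to 841 with a median of 487 in SLX-11179, and from 244 to 1304 with a median of 643 in SLX-9703. In Tph1-low cells the median was 0 CPM in both shallow pools, with highest cells at 29.2 and 28.3 CPM, and 1.34 CPM in SLX-9703, with a highest cell at 10.3 CPM. These levels follow from the limits that define the sides. The highest Tph1-low cell had 29.2 CPM, the 8 cells left between the limits had 51.98 to 199.4 CPM and the lowest Tph1-high cell had 243.9 CPM. No Tph1 read was counted in 16 Tph1-low cells, all of them in the shallow pools. A floor of 3 reads corresponded to 16.9 to 134.3 CPM in these cells, below the limit of Tph1-high in all 16 but below that of Tph1-low in only 9.

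Pzp (ENSMUSG00000030359, chr6:128483567-128526720 in mm10, minus strand) had medians in Tph1-high cells of 396, 1186 and 1126 CPM in SLX-11175, SLX-11179 and SLX-9703, and in Tph1-low cells of 419, 906 and 754 CPM. The ranges of Pzp overlapped between the sides in each pool, and the median was higher on the Tph1-high side in 2 of 3 pools. The lowest Pzp-positive cell had 104.1 CPM and the highest cell under that limit had 92.2 CPM. For a measure of reads that stray between libraries, 57 Gcg-high cells (10000 CPM or more of Gcg and Pzp under its limit) held no Tph1 read in the 37 cells of the shallow pools and at most 2.21 CPM in SLX-9703.

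**Figure D1:**
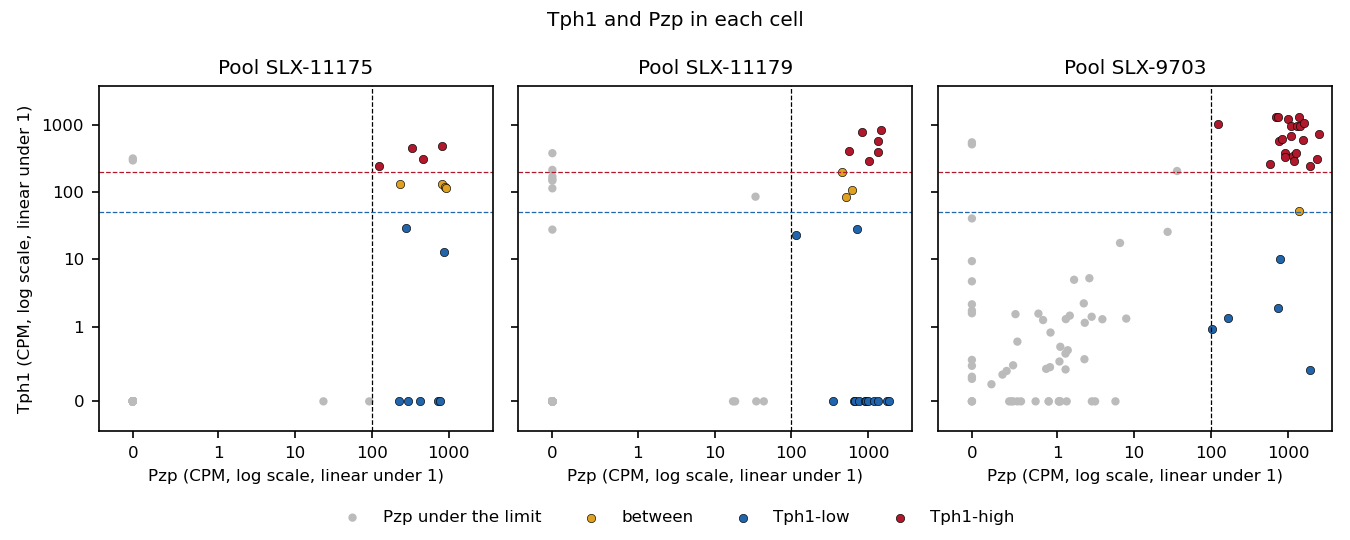
Tph1 against Pzp in each of the 250 cells that passed the depth and mitochondrial limits, by pool, both in CPM per cell on axes labelled as logarithmic, with the limits drawn as lines and Tph1-high, Tph1-low and other cells in different colours. The 32 Tph1-high cells lie at 244 CPM of Tph1 or more and the 25 Tph1-low cells at 29.2 CPM or less, over a shared range of Pzp.

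Depth and quality were as follows. Summed over the cells of a side, reads on genes came to 306894, 509626 and 47550109 for Tph1-high and to 415033, 960415 and 9259083 for Tph1-low in SLX-11175, SLX-11179 and SLX-9703. The median cell was deeper on the Tph1-high side in every pool, with 85971, 87965 and 2186760 reads against 60571, 72152 and 1072510. At 20000 reads per cell the median number of genes detected was 2697, 2793 and 3350 in Tph1-high and 2613, 2739 and 2812 in Tph1-low cells. Mitochondrial shares had medians of 2.71%, 3.30% and 4.95% against 2.63%, 3.37% and 6.03%. Of the 5 Tph1-low cells of SLX-9703, 1 had 19.1% mitochondrial reads and 49.96% spike-ins among its reads on genes and spike-ins, where the highest Tph1-high cell there had 7.07% mitochondrial reads. With the mitochondrial limit at 10%, which removes that cell, edgeR again called 0 genes in each direction (unadjusted p under 0.05 for 87 higher and 100 lower). One Tph1-low cell of SLX-9703 held 40.3% of all reads in its sum, whereas the deepest cell held 8.38 to 31.8% of each of the other sums. With every cell thinned to 20000 reads before summing, edgeR tested 1104 genes and called 0 in each direction (unadjusted p under 0.05 for 30 higher and 26 lower).

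To ask which other genes go with Tph1 inside Pzp-positive cells, counts were summed per pool and side and the 6 sums were compared in a quasi-likelihood fit of edgeR that blocks on pool. No gene among 6182 tested passed a Benjamini-Hochberg adjusted p of 0.05 in either direction (0% higher and 0% lower), and the lowest adjusted p was 0.999. At an unadjusted p under 0.05, 93 genes (1.5%) were higher and 107 (1.73%) lower in Tph1-high sums. DESeq2 on the same sums called 7 genes higher and 3 lower, and limma on cells weighted equally called 0 in each direction, with 247 and 157 genes at an unadjusted p under 0.05. The biological coefficient of variation between sums was 0.673 with 2 residual degrees of freedom. The p-values set the difference between sides against its spread over the pools, after the level of each pool is taken out. No gene passed the adjusted edgeR test, so the values that follow are read as levels with intervals and not as established differences.

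Most of the plasma and digestive proteins that liver or stomach also make had positive values, though none passed the adjusted edgeR test. Of 14 tested genes on a list of such proteins, which also holds the membrane-bound Cyp2j5 and Cyp2j6 and the receptor Adgrd1, 10 had positive and 4 negative log2 fold changes of Tph1-high over Tph1-low, and the median was 0.86 against -0.08 for all genes. At an unadjusted p under 0.05, 7 of the 14 were higher (Gpx3, Serpina1d, Pgc, Ambp, Cyp2j5, Serpina1b and Habp2) and 0 lower, beside 1.5% and 1.73% of all genes. The list was written with earlier results of these data known, so its counts and median are a description and not independent evidence of direction. With cells thinned to 20000 reads the median was 0.85, with 8 of 10 tested genes positive. DESeq2 on the same sums called Gpx3, Pgc and Serpina1d higher, and edgeR with no filter on low counts called Gpx3 and Ambp. Without the deepest Tph1-low cell of SLX-9703 the median of the list was 0.57, with 9 positive and 5 negative values. The same 7 genes were higher in 3 of 3 pools, as were 11.6% of all genes.

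Gpx3 (ENSMUSG00000018339, chr11:54902453-54910377 in mm10, plus strand), the secreted glutathione peroxidase of plasma, had the lowest unadjusted p of the genes named here. Its TMM-normalised CPM in the sums was 870.1, 1086 and 1173 in Tph1-high (mean 1043 ± 156, SD, n = 3 pools) and 271, 235 and 529 in Tph1-low (345 ± 160.0). All Tph1-high sums lay above all Tph1-low sums, as was the case for 4.42% of genes. The log2 fold change was 1.67 (SE 0.33, 95% interval 0.95 to 2.40), with an unadjusted p of 2.21e-04 and an adjusted p of 0.999 by edgeR with Benjamini-Hochberg adjustment. In single cells, medians were 742, 749 and 1207 CPM against 239, 99.0 and 343 CPM. Single cells overlapped in every pool: the highest Tph1-low cells had 627, 910.1 and 1119 CPM and the lowest Tph1-high cells 563, 125 and 223 CPM. At 20000 reads per cell, Gpx3 was detected in 32 of 32 Tph1-high and in 22 of 25 Tph1-low cells. Gcg-high cells had Gpx3 medians of 0, 0 and 1.44 CPM, so that the medians of Tph1-low cells lay far above them too.

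Ambp (ENSMUSG00000028356, chr4:63143275-63154799, minus strand), the precursor of alpha-1-microglobulin and of the protease inhibitor bikunin, had 1313, 1082 and 1315 normalised CPM in Tph1-high sums and 84.7, 766 and 522 in Tph1-low sums. These groups did not overlap either, as for 4.42% of genes, and the log2 fold change was 1.80 (SE 0.53, interval 0.65 to 2.95, unadjusted p 0.00475). At equal depth, 24 of 32 Tph1-high and 11 of 25 Tph1-low cells held an Ambp read. Within Tph1-low cells of SLX-11179, Ambp ran from 0 in 6 of 13 cells to 1871 CPM, close to the highest Tph1-high cell of that pool at 1899.8 CPM. The ranges of single cells thus overlapped although the sums did not.

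Pgc (ENSMUSG00000023987, chr17:47726842-47734482, plus strand), which encodes the gastric protease precursor progastricsin, had 725, 1324 and 673 normalised CPM in Tph1-high sums and 213, 827 and 249.6 in Tph1-low sums. It was higher on the Tph1-high side in every pool, but the groups overlapped through SLX-11179, and the log2 fold change was 1.28 (SE 0.33, interval 0.56 to 2.01, unadjusted p 0.00194). Pgc was detected at equal depth in 30 of 32 Tph1-high and 15 of 25 Tph1-low cells.

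Serpina1d, of the alpha-1-antitrypsin family of elastase inhibitors, had 63.2, 169 and 69.4 normalised CPM against 0, 15.4 and 15.2 (log2 fold change 3.32, SE 0.83, interval 1.54 to 5.10). Serpina1b had a log2 fold change of 0.81 (interval 0.05 to 1.56), with 312, 372 and 313 normalised CPM against 184, 264 and 141, again without overlap, as for 4.42% of genes. The Serpina1 genes are near-identical copies and the annotation of Serpina1b spans that of Serpina1d, so the division of reads among them is uncertain. Habp2, a protease of plasma that binds hyaluronan, had 175, 357 and 365 against 140.1, 217 and 136 (0.84, interval 0.03 to 1.66). Transthyretin and retinol-binding protein, also plasma proteins of the list, gave intervals around 0: Ttr had a log2 fold change of -0.14 (-0.88 to 0.61) and Rbp4 one of -0.02 (-0.67 to 0.62).

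**Figure D2:**
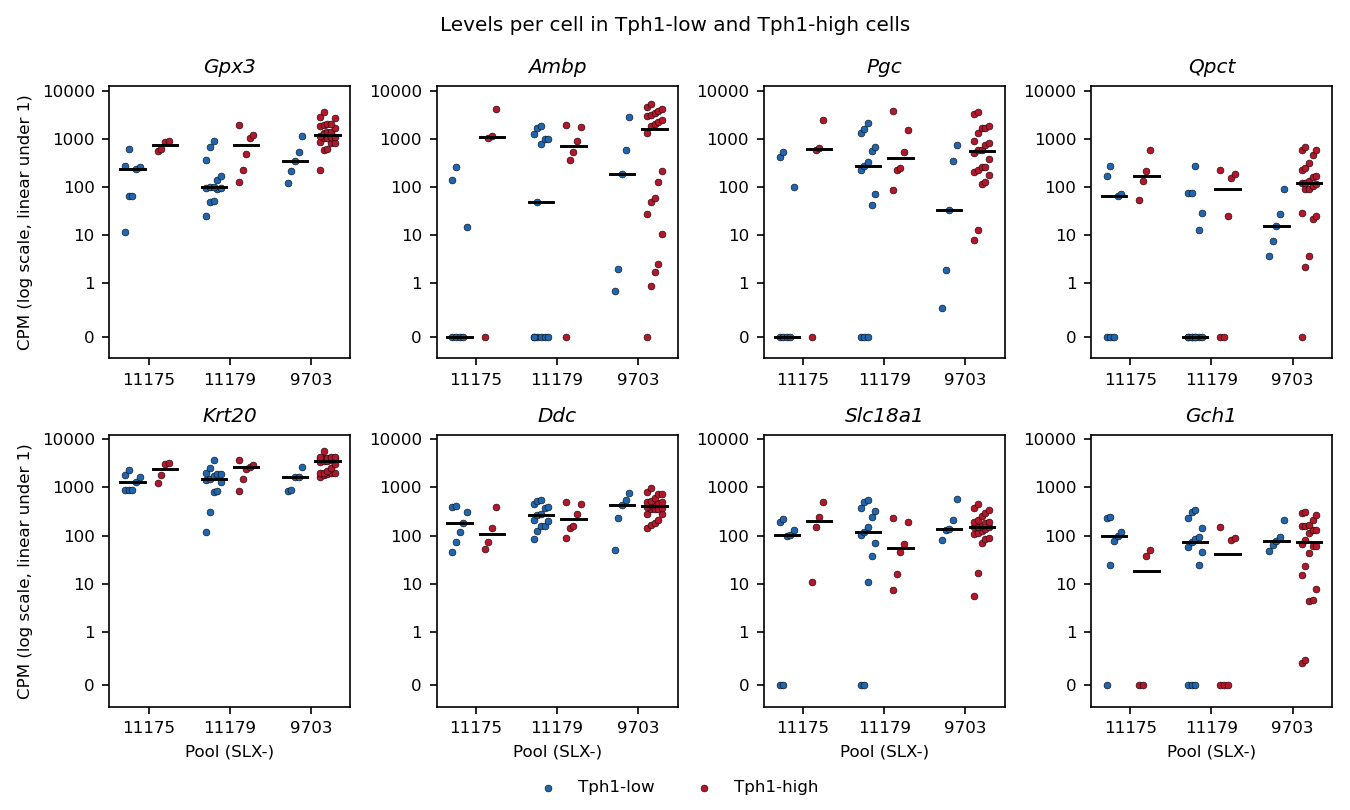
CPM per cell of Gpx3, Ambp, Pgc, Qpct, Krt20, Ddc, Slc18a1 and Gch1 in Tph1-high and Tph1-low cells of each pool, on a logarithmic axis, with a dot per cell and a line at each median. The Gpx3 medians are 742, 749 and 1207 CPM in Tph1-high cells and 239, 99.0 and 343 CPM in Tph1-low cells, whereas the Ddc dots of both sides share a range.

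No tested gene of the serotonin pathway passed the adjusted test, and Tph1 itself, which defines the sides, was not tested. Of 14 genes tested on a list for synthesis, cofactor supply, vesicle loading, uptake and breakdown, 3 had positive and 11 negative log2 fold changes, with a median of -0.21 against -0.08 for all genes. This split was not seen without SLX-11175, where 18 genes were tested, with 10 positive and 8 negative values and a median of 0.09. Ddc (ENSMUSG00000020182, chr11:11814101-11898144, minus strand), the enzyme after Tph1, had 223, 328 and 364 normalised CPM in Tph1-high and 248, 278 and 466 in Tph1-low sums. The groups overlapped fully, and the log2 fold change of -0.09 had an interval of -0.82 to 0.64 that holds 0 but is wide. Ddc was read in 32 of 32 and 25 of 25 cells, and its medians in Gcg-high cells were 224, 188 and 389 CPM, so it was present in cells with and without Tph1.

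Slc18a1, the vesicular monoamine transporter of endocrine cells, had 242, 85.6 and 143 normalised CPM against 140.1, 196 and 195. The order differed between pools, with a log2 fold change of -0.30 (interval -1.28 to 0.68, unadjusted p 0.518). At equal depth it was detected in 25 of 32 Tph1-high and 19 of 25 Tph1-low cells. Without the strand of the reads, Slc18a1 and Ddc cannot be separated from genes that overlap them on the other strand (Atp6v1b2 and 1700042O10Rik among them). The related transporter Slc18a2 of neurons was read in 6 Tph1-high cells and 1 Tph1-low cell and was too low for the test.

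Gch1, which makes the first intermediate of tetrahydrobiopterin, was lower in the Tph1-high sums, at 29.7, 68.9 and 93.8 normalised CPM against 155, 122 and 138. The groups did not overlap in that direction, as for 5.06% of genes, and the log2 fold change was -1.16 (SE 0.51, interval -2.27 to -0.05, unadjusted p 0.0413, adjusted p 0.999 by edgeR with Benjamini-Hochberg adjustment). Without the deepest Tph1-low cell of SLX-9703 it was -0.92 with an unadjusted p of 0.156. Shares of cells with a Gch1 read at equal depth were close, at 20 of 32 and 17 of 25. Gcg-high cells, which lack Tph1, had Gch1 medians of 74.2, 107 and 216 CPM.

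Of the genes that end the 5-HT signal, the monoamine oxidase Maob had 7.44, 35.5 and 136 normalised CPM against 78.8, 137 and 138. The difference was -1.50 (interval -2.89 to -0.11, unadjusted p 0.0369) and came from the shallow pools, since both sides of SLX-9703 were at the same level. The serotonin transporter Slc6a4 was low on both sides, at 3.72, 29.2 and 28.4 against 8.76, 11.3 and 48.8, with an interval of -2.60 to 2.39. Maoa, the other monoamine oxidase, was too low for the test, with reads in 15 Tph1-high and 6 Tph1-low cells. Tph2, the neuronal hydroxylase, was read in 1 Tph1-high cell, at 1.73 CPM, and in 0 of 25 Tph1-low cells.

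Genes known from enterochromaffin cells did not pass the adjusted test either. Of 10 tested genes on that list, which shares Ddc, Slc18a1 and Gch1 with the serotonin list, 1 had a positive and 9 negative log2 fold changes (median -0.54), where 3339 of all 6182 genes were negative. At an unadjusted p under 0.05, Chga, Chgb and Gch1 were lower, beside 1.73% of all genes, and none of these 3 kept such a p without the deepest Tph1-low cell of SLX-9703. Tac1, the substance P precursor, was read in 4 Tph1-high and 5 Tph1-low cells. Trpa1, the irritant receptor of enterochromaffin cells, was read in 3 and 1, and Lmx1a, a transcription factor of the enterochromaffin lineage, in 0 and 1. Reg4 had no read in any of the 57 cells. Fev, another transcription factor of serotonergic cells, had 70.7, 39.7 and 71.8 normalised CPM against 131, 48.3 and 155 (log2 fold change -0.78, interval -1.86 to 0.30).

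Chromogranin A and B, the granule proteins, were among the lower genes, but their values rested on few cells. Chga (ENSMUSG00000021194, chr12:102554969-102565028, plus strand) had 316, 68.9 and 186 normalised CPM in Tph1-high and 449.6, 129 and 941 in Tph1-low sums, with a log2 fold change of -1.27 (SE 0.41, interval -2.16 to -0.38, unadjusted p 0.00869). The deepest Tph1-low cell of SLX-9703 held 94.4% of the Chga reads of its sum, and without it the log2 fold change was -0.14 with an unadjusted p of 0.758. By the median cell, Chga was 229, 59.98 and 152 CPM in Tph1-high against 104, 73.3 and 113 CPM in Tph1-low cells, higher in 2 of 3 pools. Chgb had 1606, 1237 and 2717 against 4688, 1343 and 5369 normalised CPM (-0.88, interval -1.61 to -0.16), and -0.51 with an unadjusted p of 0.216 without that cell.

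Gcg itself also rested on few cells. Its normalised CPM was 621, 459.5 and 1211 in Tph1-high and 5129, 305 and 3773 in Tph1-low sums, overlapping, with a log2 fold change of -1.40 (SE 0.55, interval -2.59 to -0.22, unadjusted p 0.0237). The deepest Tph1-low cell of SLX-9703 held 92.6% of the Gcg reads of its sum, and without it the log2 fold change was -0.24 with an unadjusted p of 0.734. A Tph1-low cell of SLX-11175 with 32722 CPM stood apart from a median of 778 CPM there. On the Tph1-high side, a cell of SLX-9703 with 9545 CPM held 31.6% of the Gcg reads of its sum. Gcg was called lower by edgeR with no filter on low counts (-1.30) and without SLX-11179 (-2.31). Median cells had 477, 278 and 292 CPM in Tph1-high and 778, 190.5 and 365 CPM in Tph1-low cells, all well under the medians of Gcg-high cells (80330.2, 97364 and 153918 CPM).

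Of 34 gut peptide genes, 8 were high enough to test, and among these Cck and Sct were expressed at high levels on both sides. Cck, the cholecystokinin gene, had 172146, 121586 and 136778 normalised CPM in Tph1-high and 213689, 84960.3 and 184628 in Tph1-low sums, and was abundant in every sum. The log2 fold change was -0.08 with an interval of -0.92 to 0.76, and the groups overlapped. Sct, which encodes secretin, had 57273, 37907 and 40977 against 33563, 13243 and 51411 (0.66, interval -0.20 to 1.52). Its median cell was higher on the Tph1-high side in each pool, at 43820.1, 34579 and 39126 CPM against 16931, 3663 and 31991, and 65.8% of the Sct reads of the Tph1-low sum of SLX-9703 came from its deepest cell. Without that cell the log2 fold change was 0.87 (unadjusted p 0.0625), and edgeR with no filter on low counts called Sct higher.

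Ghrl, the ghrelin gene, went opposite ways in the pools, at 23895, 13103 and 8082 normalised CPM against 5888, 12092 and 36698. The fitted log2 fold change was 0.01 (interval -1.36 to 1.37), but 96.4% of the Ghrl reads of the last of these sums came from its deepest cell, and without that cell the value was 1.30 with an unadjusted p of 0.0122. Nts, the neurotensin gene, varied more between pools than between sides, at 49300.3, 9359.8 and 1991 against 70033, 3549.5 and 1262 (0.52, interval -0.32 to 1.36). Its reads came from few cells, with Nts of 100000 CPM or more in 1 Tph1-high and 1 Tph1-low cell. Gip, the gene of the K-cell hormone, was low, at 63.2, 6.27 and 45.8 against 43.8, 63.8 and 52.9 (-0.80, interval -2.68 to 1.08). Pyy and Ucn3 had intervals of -2.94 to 2.52 and -6.82 to 2.24 and were not resolved at this depth, and Sst had no read in any of the 57 cells.

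**Figure D3:**
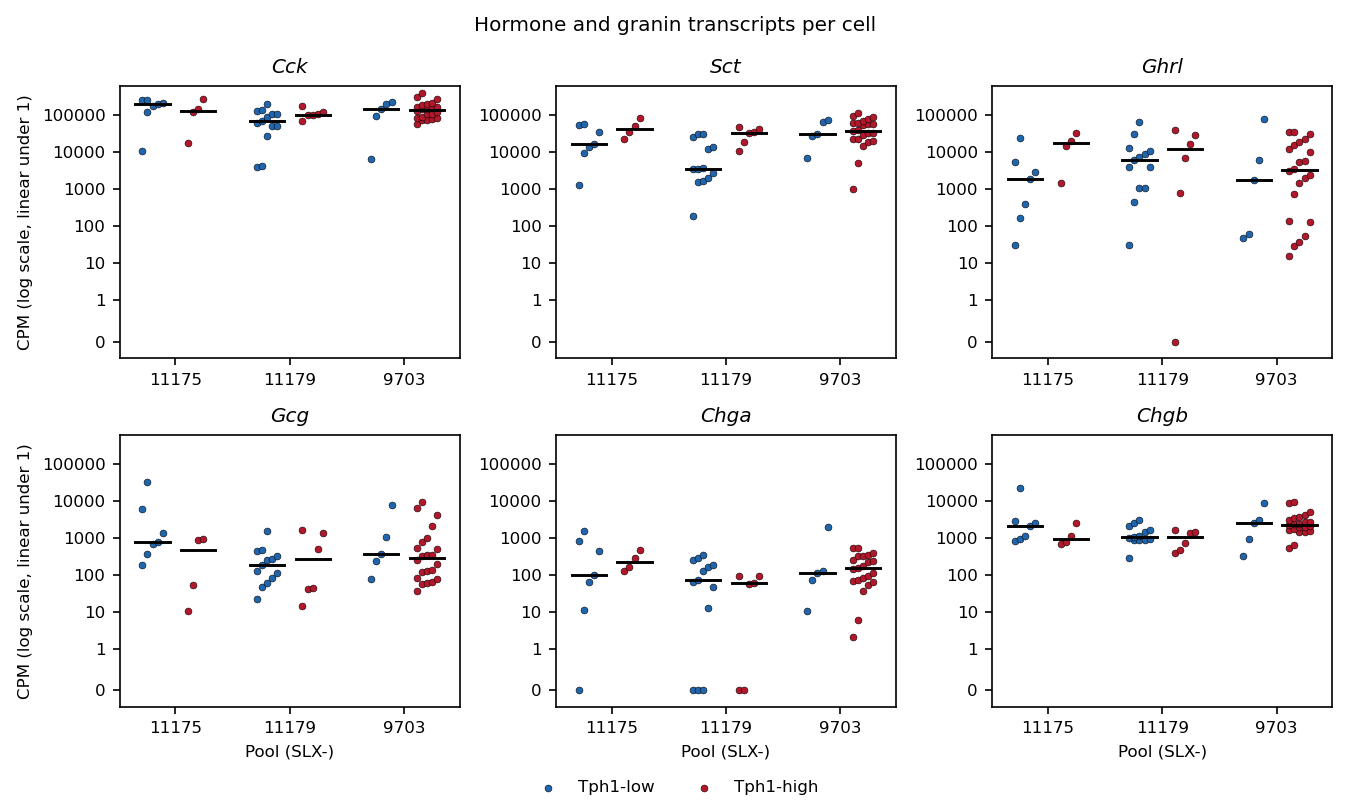
CPM per cell of Cck, Sct, Ghrl, Gcg, Chga and Chgb in Tph1-high and Tph1-low cells of each pool, on a logarithmic axis, with a dot per cell and a line at each median. The single Tph1-low cells with high Gcg are visible at 32722 CPM in SLX-11175 and 7924 CPM in SLX-9703, apart from medians of 778 and 365 CPM. A Tph1-high cell of SLX-9703 lies at 9545 CPM, apart from a median of 292 CPM.

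Among granins and processing enzymes, 6 of 17 tested genes had positive and 11 negative log2 fold changes (median -0.56, -0.36 without the deepest Tph1-low cell of SLX-9703 and -0.26 without that pool). Qpct (ENSMUSG00000024084, chr17:79051906-79090378, plus strand), the glutaminyl cyclase that forms the pyroglutamate end of peptides such as neurotensin, had the highest of these values, with 327, 83.6 and 181 normalised CPM in Tph1-high and 111, 25.7 and 51.5 in Tph1-low sums. It was higher in every pool, although the groups overlapped across pools, and its log2 fold change was 1.70 (SE 0.43, interval 0.77 to 2.62, unadjusted p 0.00154). Of cells thinned to equal depth, 25 of 32 Tph1-high and 7 of 25 Tph1-low cells held a Qpct read. Pam, which amidates peptide ends, and the carboxypeptidase subunit Cpn1 lay in the other direction. Pam had 48.3, 89.8 and 233 normalised CPM against 210.2, 245 and 304 (-1.26, interval -2.19 to -0.32). Cpn1 had 29.7, 93.995 and 135 against 111, 199 and 199 (-1.11, interval -2.09 to -0.13).

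The lists of Pzp-, L- and Gip-cell markers were chosen by the study on these same cells and so are not independent evidence of direction. Of 6 tested Pzp-cell markers, 5 had positive log2 fold changes (median 1.02) and 2 were higher at an unadjusted p under 0.05, beside 1.5% of all genes. Cyp2j5, an epoxygenase of arachidonic acid, had 338, 767 and 568 normalised CPM against 166, 356 and 404 (0.87, interval 0.16 to 1.58), and the somatostatin receptor Sstr2 had 78.1, 41.8 and 77.1 against 61.3, 8.23 and 15.9 (1.67, interval 0.02 to 3.33). Without the deepest Tph1-low cell of SLX-9703 neither kept that p, at 0.57 (unadjusted p 0.182) for Cyp2j5 and 1.34 (0.116) for Sstr2. The calcium-sensing receptor Casr (0.76, interval -0.59 to 2.11) and the melanocortin receptor Mc4r (-0.22, interval -1.34 to 0.91) had intervals across 0. Of 11 tested L-cell markers, 0 had positive and 11 negative values (median -1.27), and 4 were lower at an unadjusted p under 0.05 (Chga, Chgb, Gcg and Abcc8), beside 1.73% of all genes. Of these 4, Abcc8 alone kept such a p (0.0354) without the deepest Tph1-low cell of SLX-9703. The list median was then -0.52, again with 11 of 11 negative, and it was -0.71 with 2 positive values without SLX-11175. Abcc8, the sulfonylurea receptor subunit of the KATP channel, had 14.9, 12.5 and 23.1 normalised CPM against 35.03, 78.1 and 123 without overlap (-2.17, interval -3.76 to -0.58, and -1.99 without that cell). All Tph1-high sums lay below all Tph1-low sums for 5.06% of all genes. Both tested Gip-cell markers, Gip and Fabp5, had negative values, with a median of -0.82. Without SLX-11179, 5 markers of that list were tested, with 2 positive and 3 negative values and a median of -0.11.

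Leading genes outside these lists, by the smallest unadjusted p with the same direction in 3 pools, were led on the higher side by Anxa2, a phospholipid-binding annexin, with 487, 535 and 324 normalised CPM against 295, 196 and 90.5 (log2 fold change 1.35, interval 0.57 to 2.13). Pdk3, a kinase that inhibits pyruvate dehydrogenase, had 201, 276 and 214 against 96.3, 125 and 60.6 (1.35, interval 0.48 to 2.23), without overlap. All Tph1-high sums lay above all Tph1-low sums for 4.42% of all genes. Low on the Tph1-low side were Gtf2f2, a subunit of the general factor TFIIF, at 119, 125 and 31.5 against 14.6, 30.8 and 0.12 (3.79), Prune1 at 37.2, 41.8 and 18.7 against 0, 2.06 and 0.24 (5.62), and Slc35a1, the Golgi transporter of CMP-sialic acid, at 29.7, 50.1 and 32.3 against 0, 4.11 and 0.83 (4.79). The fitted values of these low genes depend on few reads. DESeq2 on the same sums called Gtf2f2 and Prune1 higher, and edgeR with Pzp from 500 CPM called Gtf2f2 higher.

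On the lower side, the repressor subunit Rcor1 had 18.6, 62.7 and 35.6 normalised CPM in Tph1-high and 143, 134 and 144 in Tph1-low sums (log2 fold change -1.94, interval -3.11 to -0.77). Marcks, a membrane substrate of protein kinase C, had 89.2, 50.1 and 111 against 166, 211 and 306 (-1.48, interval -2.40 to -0.56). Neither gene overlapped between the sides, and the same order of sums was seen for 5.06% of all genes. Leading genes were picked for a small p and the same direction in 3 pools, which favours such a separation. Rasd1, a small GTPase induced by glucocorticoids, had 7.44, 20.9 and 34.6 against 17.5, 208 and 188 (-2.56), and the GPI-anchored Ly6e had 55.8, 37.6 and 164 against 178, 139 and 362 (-1.54). The activin receptor Acvr1c (-3.85), the glucose transporter Slc2a1 (-4.92) and the endosomal syntaxin Stx12 (-3.92) had a Tph1-high sum at 0 in at least 1 pool. DESeq2 on the same sums called Acvr1c, Slc2a1 and Stx12 lower. EdgeR called Rhbdd1 lower with no filter on low counts and Rasd1 lower without SLX-11175. The intramembrane protease Rhbdd1 (-2.64), the transporter Slc12a8 (-2.84) and Tmub2 (-1.78) completed the 10. Rhbdd1 stood at 0, 0 and 732 against 102, 40.1 and 1349, a larger gap between pools than between sides.

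No transcription factor on a list for enteroendocrine and gut epithelial identity passed the adjusted test. Of 30 tested, 10 had positive and 20 negative values (median -0.32, and -0.07 without SLX-9703), 1 was lower at an unadjusted p under 0.05 and 0 higher, beside 1.73% and 1.5% of all genes. That gene was Rfx6, a factor of endocrine differentiation, with 14.9, 0 and 0.70 normalised CPM against 32.1, 17.5 and 17.7 (log2 fold change -3.64, interval -7.26 to -0.02). Etv1 had 81.8, 184 and 123 against 283, 224 and 148 (-0.73, interval -1.66 to 0.20). Of 17 receptors on the G protein-coupled list, 6 were positive and 11 negative (median -0.22, and 0.11 without SLX-9703), with the fatty acid receptor Ffar1 at 119, 81.5 and 91.2 against 169, 112 and 242 (-0.81, interval -1.74 to 0.12).

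Of 15 channel genes, 7 were positive and 8 negative (median -0.15, but 0.22 without the deepest Tph1-low cell of SLX-9703 and 0.19 without that pool), and the ATP-gated channel P2rx4 had 112, 77.3 and 67.7 normalised CPM against 0, 59.6 and 16.2 (log2 fold change 2.24, interval 0.17 to 4.31). Of 21 exocytosis genes, 12 were positive and 9 negative, with a median of 0.03. Among them Syt13, a synaptotagmin, had 26.03, 43.9 and 159.7 against 117, 157 and 244 (-1.46, interval -2.50 to -0.42). The median was 0.51 (14 positive, 6 negative) without SLX-9703 and -0.34 (7 and 13) with Pzp from 500 CPM, so it had no steady side.

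For position on the crypt-villus axis, 12 villus and BMP target genes were tested, of which 6 were positive and 6 negative (median -0.06, but 0.65 without SLX-9703 and 0.50 with Tph1-low under 20 CPM). Krt20, a keratin of mature epithelium, had 2826, 2743 and 2680.3 normalised CPM in Tph1-high and 1661, 1800.5 and 2072 in Tph1-low sums. These did not overlap, as for 4.42% of all genes in that direction, and the log2 fold change was 0.58 (SE 0.29, interval -0.04 to 1.20, unadjusted p 0.065). Median cells had 2448, 2596 and 3469 CPM against 1271, 1507 and 1625 CPM, and Gcg-high cells had 959.9, 958 and 990.3 CPM. Ceacam1, an adhesion molecule of the brush border, lay in the other direction at 66.9, 85.6 and 106 against 216, 166 and 125 (-0.92, interval -1.90 to 0.07). In the crypt and cycling list only 3 of 25 genes were high enough to test, namely Dll4 (-1.27, interval -2.59 to 0.06), Axin2 (-1.37, interval -3.39 to 0.65) and Hes6 (0.36, interval -0.81 to 1.53).

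Of 20 immediate early and heat shock genes, which respond to tissue dissociation, 7 were positive and 13 negative (median -0.17, but 0.15 with Pzp from 500 CPM and 0.04 with limma). Klf2 had 0, 163 and 118 normalised CPM against 72.98, 244 and 217 (log2 fold change -1.41, interval -2.80 to -0.02). Atf3 had 219, 459.5 and 136 against 248, 336 and 3.07 (1.54, interval -0.35 to 3.43), a difference made in SLX-9703. Its value ran from 0.15 to 5.04 over the alternatives, and edgeR called it higher with Pzp from 500 CPM and with Tph1-high from 500 CPM.

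**Figure D4:**
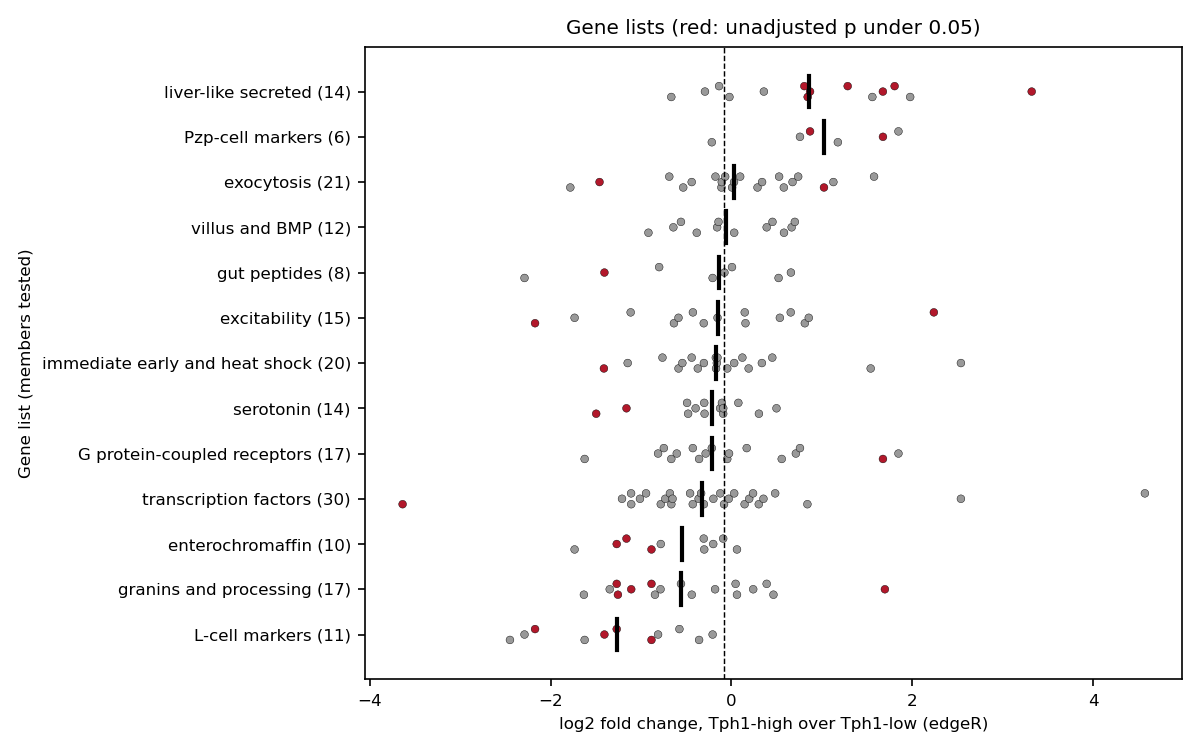
Log2 fold change of Tph1-high over Tph1-low for each tested gene of 13 gene lists, with a dot per gene, red where the unadjusted edgeR p is under 0.05, a bar at the list median and a dashed line at the median of all 6182 genes (-0.08). The liver-like list has a median of 0.86 and the L-cell markers one of -1.27, while exocytosis genes centre on 0.03.

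Markers of other intestinal cell types were read in the same cells. The goblet list of 8 genes, led by Tff3 and Agr2, summed in the median cell to 10834, 10289 and 10441 CPM in Tph1-high and to 6370 (range 685 to 9513), 5903 (565 to 18671) and 7031 (1868 to 15104) CPM in Tph1-low cells, against 653, 853 and 978 CPM in Gcg-high cells. The defining goblet genes Zg16, Clca1 and Spdef were at 0 in every sum of the shallow pools and Muc2 reached at most 2.41 CPM in a sum. Fcgbp, an IgG-binding mucin-like protein of that list, had 498, 255 and 250.6 normalised CPM in Tph1-high and 23.4, 114 and 203 in Tph1-low sums, without overlap (log2 fold change 1.69, interval 0.34 to 3.04), and was detected at equal depth in 32 of 32 and 13 of 25 cells. All Tph1-high sums lay above all Tph1-low sums for 4.42% of all genes. Tff3 had 0.66 (interval -0.15 to 1.46) and Agr2 -0.14 (interval -0.79 to 0.51). The part of goblet transcripts in the differences was not tested.

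Enterocyte markers (14 genes) had summed medians of 2423, 2832 and 3459 CPM in Tph1-high and 3528, 2289.7 and 3713 CPM in Tph1-low cells, with Alpi and Lct at 0 in the shallow pools. Immune markers (16 genes) summed to medians of 111, 52.1 and 41.9 CPM against 194, 286 and 10.6 CPM, with a highest Tph1-low cell at 3585 CPM, and stem cell markers reached 4543 CPM in a single Tph1-low cell of SLX-11179, where Olfm4 was the highest of them. Paneth markers, led by Lyz1, summed to 91.2, 0 and 29.9 CPM in the Tph1-high and 4.82, 10.4 and 2.16 CPM in the Tph1-low sums, and reached 420.03 CPM in a Tph1-high cell of SLX-9703. Tuft markers, led by Avil in 5 of 6 sums, summed to 3.26, 15.7 and 24.8 CPM against 26.5, 27.1 and 55.2 CPM, higher on the Tph1-low side in every pool. In the Tph1-low sums, Igkc led the immune list in SLX-11175 at 195 CPM and Cd74 in SLX-11179 at 334 CPM, while Ptprc, the defining leukocyte gene, was at 0 in all 4 sums of the shallow pools. The part of these cell types in the differences was not tested beyond leaving out cells. Without cells of 1000 CPM or more of immune markers, of 5000 CPM or more of enterocyte markers, or of 10000 CPM or more of Gcg, edgeR again called 0 genes in each direction (unadjusted p under 0.05 for 62 to 95 genes higher and 86 to 101 lower).

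The genes whose level followed Tph1 most closely from cell to cell were found by rank correlation over all Pzp-positive cells within each pool (15, 22 and 28 cells), among 5997 genes read in 20% or more of these cells in every pool. The values are a description without a test, since the cells of a pool share a mouse and a sequencing run and depth acts on all genes of a cell. By the lowest Spearman rho of the 3 pools, the 10 genes were 1810037I17Rik (rho 0.58, 0.45 and 0.40), Gpx3 (0.76, 0.64 and 0.37), Pla2g12a, Lypla1, Qpct (0.34, 0.39 and 0.45), Bpnt1, Abca5, Cr1l, Trip11 and Kdelr2 (0.45, 0.31 and 0.31). Tph1 also defines the sides, so these genes must tend to differ between them. In the sums, Pla2g12a, a secreted phospholipase A2, had 96.7, 107 and 133 normalised CPM against 29.2, 67.9 and 62.1 (log2 fold change 1.13, interval 0.01 to 2.24), and Bpnt1, a phosphatase of bisphosphate nucleotides, had 149, 91.9 and 113 against 32.1, 54.5 and 57.2 (1.27, interval 0.12 to 2.42). For Lypla1, which removes palmitoyl groups from proteins, the sums were 205, 338 and 365 against 131, 118 and 276 (0.85, interval 0.03 to 1.67). The intervals of 1810037I17Rik (-0.48 to 2.63), Cr1l (-0.67 to 2.32), Trip11 (-0.44 to 2.08) and Kdelr2 (-0.29 to 1.35) held 0, and Abca5 was too low for the test. The most opposed was Rhbdd1 (-0.31, -0.56 and -0.28).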

How the data were processed

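Whole-read counts per gene were deposited by the authors as a table of single cells, made with GSNAP 2015-09-29 and HTSeq 0.5.3p3 on mm10 according to the submitters' processing notes. It holds 46078 mouse genes and 92 spike-ins. Mouse genes held 17.1% of counts, lines that name no gene 77.6% and spike-ins 5.34%; the latter 2 were left out of library sizes and tests. In the table, 4 columns matched no sample and were not used. Positions came from GENCODE M21, which holds 45143 of the identifiers. Aggregates were gated out by scatter and pulse width in the sort, by the study's methods, which allow that some small groups of cells remained; no doublets were called here.

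The pools, Tph1 and Pzp limits, gene lists and named genes were chosen with earlier results of these data known. Counts were summed per pool and side, since cells are not replicates, and 6 sums from 3 pools were tested with edgeR 4.0.16 in R 4.3.3 (TMM, filterByExpr, quasi-likelihood test, pool as block, Benjamini-Hochberg adjustment, false discovery rate 0.05). Tph1 and Pzp were left out of the calls. A TMM-normalised CPM is the count of a sum per 1000000 reads on genes after TMM scaling, and a CPM per cell is not scaled. The pool was a block because each comes from its own mouse by the study's methods. Deviations of both sides of a pool correlated at 0.0883, 0.0679 and 0.174, against -0.105 to -0.015 between pools. They were taken from the mean of each side over 3 pools, so values between pools must offset those within pools and are no independent contrast. Named genes were those of the fixed list, the 10 leading genes per direction (20 CPM or more on the higher side, same direction in 3 pools), the 2 with the smallest p of each list, and the 10 most like Tph1; the others were chosen after their values were seen. A gene that this rule names is not reported here. Alternatives were another scaling and filter, other limits on cells, DESeq2 1.42.0, limma 3.58.1 on log2(mean CPM + 1) of genes with 5 CPM or more, cells thinned to 20000 reads, and each pool left out. The test was checked on simulated data with 5211 genes. It called 12 of 59 genes (20.3%) at a true log2 fold change of 2 and 29 of 50 (58%) at 3. At 5 it called 61 of 61, and at 0 it called 1 of 5041. The simulated spread depended only on the level of a gene, with no spread particular to a gene. Only genes that passed the filter again were counted, so these shares hold for that setting and are not the power in the data. Depth was 306894 to 47550109 reads per sum. Binomial intervals are exact (Clopper-Pearson, 95%) and, like the floor of 3 reads, cover counting error only, since PCR copies were not removed by molecular barcodes.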

Additional observations from a re-analysis of the deposited data

Results flagged for a closer look

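Tph1 was also high outside the Pzp-positive cells, in data the comparison does not use. Of 185 cells with Pzp under 100 CPM, 7 (3.78%) had 200 CPM or more of Tph1, with 2, 2 and 3 cells in SLX-11175, SLX-11179 and SLX-9703. Of these 7 cells, 6 held no Pzp read. Nts reached 100000 CPM in 5 of the 7, in 11 of all 185 cells with Pzp under the limit, and in 1 of 32 Tph1-high and 1 of 25 Tph1-low Pzp-positive cells. Gpx3 was 1800, 3394, 1626, 2394, 183, 623 and 1.66 CPM in these 7 cells. The cells were too few for a test.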

How the results depend on the processing

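With the pool as a block edgeR called 0 genes higher and 0 lower, and with no block also 0 and 0 (75 and 81 at an unadjusted p under 0.05). Calls appeared with no filter on low counts (4 higher and 3 lower), with Tph1-high from 500 CPM (2 and 2), with Pzp from 500 CPM (2 and 0) and with DESeq2 (7 and 3). Leaving out 1 pool gave 0 to 5 higher and 0 to 4 lower: 1 and 4 without SLX-11175, 5 and 1 without SLX-11179, and 0 and 0 without SLX-9703. Tph1-high from 500 CPM left no Tph1-high cell in SLX-11175, so that pool was dropped there. The causes were not tested. The other alternatives called 0 and 0 genes; the 4 that leave out cells by Gcg, immune or enterocyte markers or depth were chosen after seeing the data. The log2 fold change of Chga turned to 0.16 (unadjusted p 0.838) with Pzp from 500 CPM, and that of Ghrl to -1.55 (1.69e-04) with Tph1-high from 500 CPM. Gpx3 kept a positive value in all 21 alternatives, from 1.16 to 1.95, as did Ambp (0.86 to 2.61), Pgc (0.97 to 1.85) and Qpct (1.44 to 2.16), and Gch1 a negative one (-1.53 to -0.58). The shallow pools, with 306894 to 960415 reads per sum, limit what low genes can show.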
